A study of Mus musculus with 2 samples.

Results

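Collagens and laminins are the main structural proteins of the extracellular matrix, and the genes of both families were described here in nuclei sorted from injured mouse cortex. The members were chosen by symbol alone, as all genes named Col, a number, a and a number (44 collagen genes) or Lam, the letter a, b or c and a number (11 laminin genes). This gave 55 of the 31053 genes in the deposited matrices. In all nuclei together, 52 of the 55 held at least 20 unique molecular identifiers (UMIs, each marking 1 captured RNA molecule), and levels are described for these 52. Col9a1 and Col28a1 held 15 UMIs each and Col10a1 held 1.

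A collagen is a trimer of alpha chains wound into a triple helix, and each Col gene codes for 1 type of alpha chain. Fibrillar collagens (types I, II, III, V, XI, XXIV and XXVII) form fibrils, FACIT collagens (IX, XII, XIV, XVI, XIX, XX and XXII) attach to them, collagen IV forms the network of basement membranes, and collagens XIII, XVII, XXIII and XXV span the cell membrane. Laminins are trimers of an alpha, a beta and a gamma chain (Lama, Lamb and Lamc genes) and form the other network of basement membranes, to which cells attach through integrins and dystroglycan. In the brain, basement membranes lie around blood vessels and under the pia, and meningeal fibroblasts are a known source of collagen.

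The nuclei came from Atf3-CreER::Sun1-sfGFP mice, labelled heterozygous and over 7 weeks old, in which cells that express Atf3, an injury-induced transcription factor, while tamoxifen is present acquire a green nuclear envelope. All animals received a closed-skull mild traumatic brain injury (mTBI) and tamoxifen on days 4 and 5, and GFP-positive nuclei were sorted from the cortex at 7 days post injury (dpi). There were 2 libraries, 1 from a pool of 4 males and 1 from a pool of 4 females. There were no nuclei from uninjured animals and none sorted as GFP-negative, so no level could be set against an uninjured one, and sex, pool and depth cannot be told apart. A label field gives the female library as male, while its title and the deposited table give female, the name used here. The 4003 labelled nuclei of the males had a median of 1742 UMIs and the 4168 of the female library a median of 3710, and 1 barcode occurred in both. The UMIs of the nuclei of a deposited label were summed per library and given as CPM, scaled to the same total for each sum, for the 15 labels with at least 50 nuclei, which gave 30 sums. The deposited label Micro-PVM (microglia and perivascular macrophages) is called microglia here. In the text, values of both libraries are given with the male library first, so that n = 2 throughout. Reads in introns count towards a gene in these data, so long genes can gather more UMIs, and levels are compared between labels within a gene and not between genes.

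The 6 collagen IV genes are shown by sequence first, because they lie as 3 head-to-head pairs that run away from each other on opposite strands, and the members of a pair were compared across labels. All stretches are of the plus strand of GRCm38, with gene starts from GENCODE vM21, and capitals mark a GC box (GGGCGG, searched on both strands). The annotated starts of Col4a2 and Col4a1 overlap by 22 bases, at chr8:11312805-11312826, within the first exon of each gene. Between the starts of Col4a4 and Col4a3 lie 71 bases, at chr1:82586850-82586920. The starts of Col4a6 and Col4a5 lie farther apart, at chrX:141474076 and chrX:141475385. Of the bases between them, the 100 upstream of each start are shown, at chrX:141474077-141474176 and chrX:141475285-141475384.
Col4a2 and Col4a1 start overlap: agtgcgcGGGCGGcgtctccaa
Col4a4 to Col4a3: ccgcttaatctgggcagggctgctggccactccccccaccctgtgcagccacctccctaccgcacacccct
upstream of Col4a6: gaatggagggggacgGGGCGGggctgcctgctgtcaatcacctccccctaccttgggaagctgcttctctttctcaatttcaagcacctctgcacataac
upstream of Col4a5: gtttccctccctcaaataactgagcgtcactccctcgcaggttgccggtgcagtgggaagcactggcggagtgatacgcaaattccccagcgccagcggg

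Over the whole family, 40 of the 55 members were matched in the RefSeq promoter table (GRCm38, 44 promoters of 300 bases). A GC box was found in 26 of these 44 promoters (59.1%), against 35.7% of all 32851 promoters in the table. CCAAT, searched on both strands, was found in 14 (31.8%, against 37.4% of all promoters). TGAGTCA, a site of the AP-1 family of factors to which Atf3 is related, was found in 1 member promoter, that of Col6a1 (2.27%, against 5.20% of all). A match of letters is a description and not a measured binding site.

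Most members had their highest level in nuclei labelled as vascular or meningeal. Of the 52 members, 31 were highest in the labels VLMC (vascular leptomeningeal cells, 22 members) or SMC-Peri (smooth muscle cells and pericytes, 9 members). A further 12 were highest in a neuron label, 4 in astrocytes, 3 in oligodendrocytes and 2 in microglia. The share of all genes highest in each label was not computed, so these counts do not set the members apart from other genes. Summed over all members, VLMC nuclei had 5549.5 and 6458 CPM of member UMIs and SMC-Peri nuclei 4697 and 2787 CPM, whereas astrocytes had 1615 and 1602 CPM and microglia 632 and 383 CPM. The neuron labels lay between 544 CPM (Vip, male library) and 1011 CPM (L6 IT, female library). Barcodes with at most 100 UMIs that were not called as nuclei, which hold free RNA, had 1093 and 814 CPM, so the neuron labels lay below the free RNA of their library in all male sums and in the female sums other than L2/3 IT-1 and L6 IT, and single genes were set against it one by one.

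**Figure D1:**
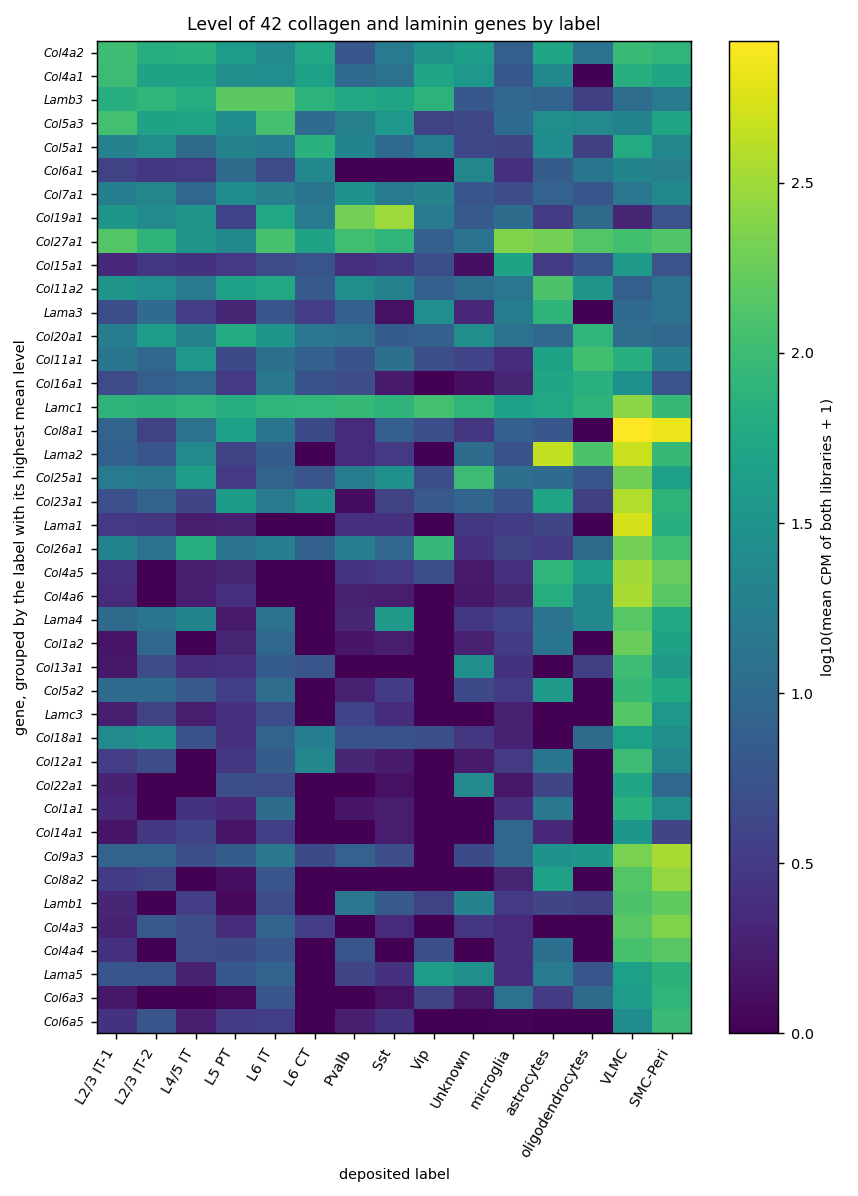
Mean level of the 42 collagen and laminin genes with at least 100 UMIs in all nuclei (rows) in the 15 deposited labels (columns), as log10 of the mean CPM of both libraries plus 1. Rows are grouped by the label with the highest mean, and the genes highest in VLMC or SMC-Peri fill the lower part.

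Of the laminin genes highest in VLMC nuclei, Lama1 was at 390.4 and 695 CPM, Lama2 at 327 and 642 CPM and Lama4 at 74.0 and 214 CPM, and the gamma chains Lamc1 and Lamc3 were at 208 and 306 CPM and 117 and 165 CPM. All 5 were higher in the female library. Of the basement membrane and short-chain collagens, Col4a5 was at 261 and 386 CPM, Col4a6 at 289.7 and 415 CPM and Col8a1 at 1181 and 471 CPM, the last with the male library higher. Of the chains that form or attach to fibrils, Col1a1 was at 63.7 and 80.6 CPM, Col1a2 at 146 and 205 CPM, Col5a2 at 67.8 and 111 CPM, Col12a1 at 61.6 and 134.3 CPM, Col14a1 at 39.0 and 27.9 CPM and Col22a1 at 34.9 and 69.7 CPM. The membrane-spanning Col13a1, Col23a1 and Col25a1 were at 65.7 and 137 CPM, 236 and 525 CPM and 107 and 273 CPM, and Col26a1 and Col18a1 at 160.3 and 245 CPM and 37.0 and 52.7 CPM. The libraries also differed in SMC-Peri nuclei. Col9a3 was at 567 and 124 CPM, Col8a2 at 389.9 and 173 CPM, Col4a3 at 326 and 129.8 CPM and Col4a4 at 222 and 61.8 CPM, all with the male library higher, as were Lamb1 (186 and 129.8 CPM) and Lama5 (104 and 43.3 CPM). The reverse held for the collagen VI chains Col6a3 (4.53 and 154 CPM) and Col6a5 (18.1 and 173 CPM).

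The 2 vascular labels did not each hold 1 kind of nucleus. SMC-Peri nuclei had no UMI of 5 of 10 pericyte and smooth muscle markers, Rgs5, Kcnj8, Abcc9, Myh11 and Higd1b, and the 10 markers summed to 54.4 and 68.0 CPM, less than in VLMC nuclei (152 and 191 CPM). Both labels, and the word vascular for them, are therefore used only as names and not as cell types. In the deposited clustering, the nuclei labelled VLMC, SMC-Peri or Endo lay in clusters 11, 15, 21 and 25, with 98 and 119, 87 and 22, 9 and 40 and 13 and 17 nuclei. Cluster 11 was led by Slc7a11, Adam12 and Ranbp3l and had UMIs of all 12 fibroblast markers searched, which summed to 4921 and 4327 CPM. Cluster 25 was led by Bnc2, Foxp2 and Slc47a1, with a fibroblast marker sum of 5999 and 6449 CPM, of which Bnc2 alone gave 4323 and 4526 CPM. Cluster 15 was led by Htr2c, Otx2os1, Enpp2 and Ttr, with a fibroblast sum of 50.7 and 28.3 CPM, and cluster 21 by the cilium genes Dnah12 and Hydin, with 27.8 and 38.0 CPM. Pericyte and smooth muscle markers summed to 25.3 and 22.6 CPM in cluster 15 and to 0 and 4.22 CPM in cluster 21. Levels in clusters 15 and 21 are therefore not taken as those of fibroblasts or of vessel cells. Of the astrocyte markers, Slc1a3 was at 1338 and 1299.5 CPM and Aqp4 at 12.3 and 26.9 CPM in VLMC nuclei. The split by cluster was chosen after the data were seen, and the clusters were made by the authors from the same counts, so their levels are given with no test.

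Cluster 11 held most of the laminin genes of this group. Lama1, the alpha chain of laminin-111, was at 1156 and 1329.6 CPM in cluster 11 and had no UMI in the other 3. Lama2, the alpha chain of laminin-211 that is lost in a congenital muscular dystrophy, was at 770.4 and 878 CPM in cluster 11 and also at 514 and 809.8 CPM in cluster 25. Lama4, an alpha chain of vessel walls, was at 222 and 354 CPM and Lamc1, the gamma chain of most laminins, at 364 and 454 CPM. Lamc3, another gamma chain, was at 342 and 327 CPM in cluster 11, and had no UMI in the other 3. Lamb2, a beta chain of basement membranes of vessels, was low, at 43.4 and 28.4 CPM. Of the 26 members with at least 100 UMIs over the 4 clusters, 12 were highest in cluster 11, 6 each in clusters 15 and 25 and 2 in cluster 21.

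Collagen genes of cluster 11 were of several classes. The basement membrane chains Col4a5 and Col4a6 were at 483 and 685 CPM and 770.4 and 789 CPM. The membrane-spanning Col13a1 was at 239 and 265 CPM in cluster 11 and at no more than 1 UMI in the other 3. Col26a1 was at 472 and 416 CPM, the FACIT Col22a1 at 97.7 and 127 CPM, and the multiplexins Col15a1 and Col18a1, whose C-terminal ends can be released as inhibitors of vessel growth, at 103 and 56.7 CPM and 38.0 and 81.3 CPM. The fibrillar chains Col5a1 and Col5a2 were at 76.0 and 125 CPM and 152 and 134.3 CPM. Col6a3, a chain of the beaded filaments of collagen VI, was at 76.0 and 123 CPM.

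The chains of collagen I, the main fibrillar collagen of skin, bone and scars, had their highest level in cluster 25, the smallest of the 4. Col1a2 was at 514 and 378 CPM in cluster 25 and 271 and 248 CPM in cluster 11, and Col1a1 at 190.4 and 139 CPM and 157 and 104 CPM. Col3a1 held 97 UMIs in all nuclei and was at 38.1 and 114 CPM in cluster 25. The membrane-spanning Col25a1 and Col23a1 were higher in it than in the other 3 clusters, at 1085 and 1242 CPM and 971 and 1555 CPM. It also held the FACITs Col12a1 (438 and 407 CPM) and Col14a1 (190.4 and 104 CPM), the fibrillar Col11a1 (152 and 412 CPM) and the collagen VI chains Col6a1 (76.2 and 74.5 CPM) and Col6a2 (229 and 74.5 CPM). Values of cluster 25 rest on 13 and 17 nuclei.

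Cluster 15 had few laminin genes and a set of collagen genes that was low in cluster 11. Col8a1, a short-chain collagen known from vessel walls and the cornea, was at 2003 and 1917 CPM in cluster 15 and at 10.9 and 41.6 CPM in cluster 11, and its partner chain Col8a2 at 391 and 305 CPM and 38.0 and 11.3 CPM. Col9a3, a chain of the FACIT collagen IX of cartilage, was at 675 and 633 CPM, with no UMI of its partners Col9a1 and Col9a2 in that cluster. Col4a3 and Col4a4, which together with Col4a5 form the collagen IV of kidney glomeruli, were at 396 and 639 CPM and 332 and 345 CPM, with Col4a5 at 184 and 124 CPM. Lamb1, the main laminin beta chain, was at 258 and 345 CPM, and the alpha chain Lama5 at 133.5 and 119 CPM. Of the markers of other cell types, the endothelial list summed to 1301 and 967 CPM in this cluster, which came mostly from Mecom (1064 and 775 CPM), while Cldn5, Flt1 and Cdh5 had no UMI.

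Cluster 21 was low in member UMIs, with 1694 and 1686 CPM summed. Col6a5, a collagen VI chain, was highest there at 167 and 249 CPM, and the fibrillar Col5a3 stood at 139 and 139 CPM. Lama2 reached 222 and 106 CPM.

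**Figure D2:**
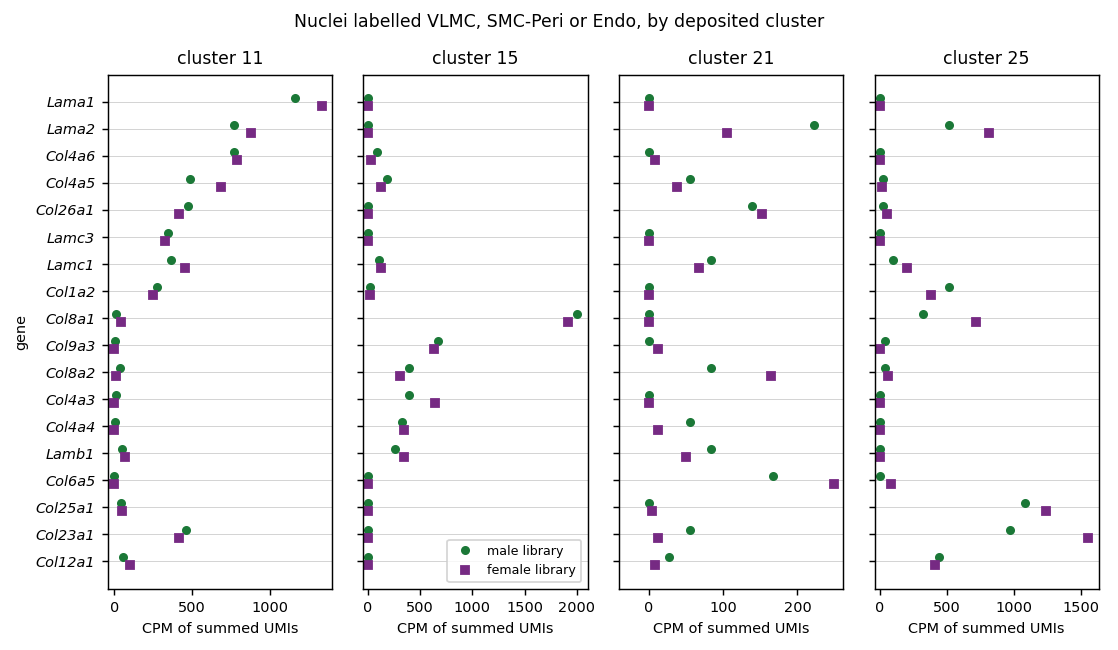
Level of 18 collagen and laminin genes (rows) in the nuclei labelled VLMC, SMC-Peri or Endo, split by deposited cluster (panels), as CPM of the summed UMIs of the male (circles) and the female library (squares). The x axis differs between panels. Both libraries place Lama1 and Col4a6 in cluster 11, Col8a1 and Col9a3 in cluster 15 and Col25a1 in cluster 25.

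The male and female libraries differed in these genes at the level of the label, and less within a cluster for the fewer genes that could be compared there. Among the same 26 members, those with at least 10 UMIs in each library were compared. All 26 had them in VLMC nuclei, and the ratio of the male to the female level ran from 0.298 to 3.52, with 12 members beyond 2-fold. In SMC-Peri nuclei the ratio ran from 0.534 to 5.91, with 5 of 12 members beyond 2-fold. Within cluster 11 it ran from 0.584 to 1.51 over 18 members and within cluster 15 from 0.620 to 1.48 over 9, with no member beyond 2-fold in either. In cluster 25 it lay between 0.453 and 1.37 over 7 members, with 1 beyond 2-fold, Col8a1, at 324 and 715 CPM. The sets of members thus differ, and Col11a1, with the lowest ratio in VLMC nuclei (0.298), had too few UMIs for a ratio in any cluster. The make-up of the labels moved with these ratios: cluster 15 gave 54.1% of the UMIs of male VLMC nuclei and 14.4% of those of female ones, and 72.4% and 19.9% of those of SMC-Peri nuclei, in which cluster 21 gave 58.9% in the female library. Its part in the ratios was not tested, and with 1 library per sex there is no test of sex.

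**Figure D3:**
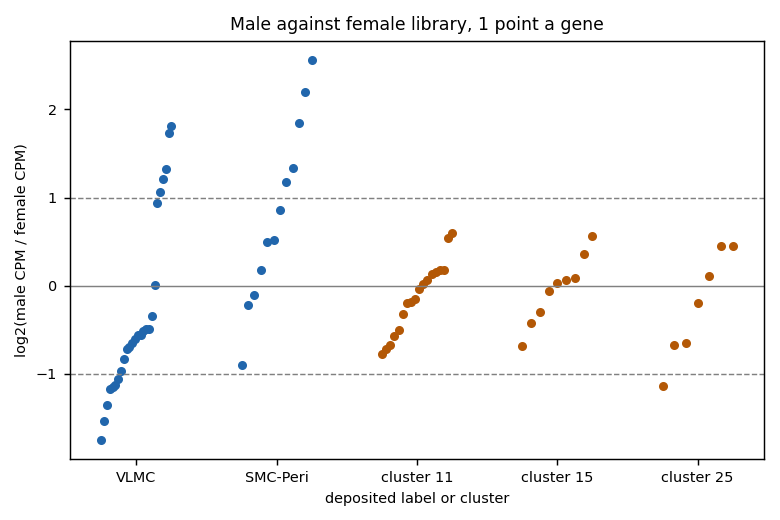
Log2 of the male over the female CPM for members with at least 10 UMIs in each library, 1 point per gene, in the VLMC (26 genes) and SMC-Peri (12) labels and in deposited clusters 11 (18), 15 (9) and 25 (7) of these labels. Dashed lines mark 2-fold. Points spread beyond the lines in both labels (12 and 5 genes) and lie within them in clusters 11 and 15.

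The 3 pairs of neighbouring collagen IV genes followed 3 different patterns across the 15 labels. Col4a1 and Col4a2, the chains of nearly all basement membranes, had their highest label mean in neurons labelled L2/3 IT-1, at 87.8 and 109.8 CPM and 90.9 and 112 CPM. In VLMC nuclei they stood at 53.4 and 83.6 CPM and 69.9 and 113 CPM, which is below L2/3 IT-1 neurons in both libraries for Col4a1 and overlaps them for Col4a2. Within the vascular labels, however, Col4a1 was at 157 and 108 CPM in cluster 11, and Col4a2 at 130.2 and 129 CPM in cluster 11 and 139 and 161 CPM in cluster 21, with means above those of L2/3 IT-1 neurons. The label Endo held 5 male and 0 female nuclei and was not among the 15 labels. SMC-Peri nuclei had no UMI of the pericyte markers Rgs5, Kcnj8 and Abcc9. The ranking of Col4a1 and Col4a2 over labels therefore does not cover endothelial cells or pericytes. Among the 15 labels, Col4a3 and Col4a4 were above 20 CPM in VLMC and SMC-Peri alone. Of their UMIs in the vascular labels, 172 of the male and 113 of the female ones of Col4a3, and 144 and 61 of Col4a4, lay in cluster 15, against 2 and 1 of Col4a3 in cluster 11. In cluster 15 the 12 fibroblast markers summed to 50.7 and 28.3 CPM and the 10 pericyte and smooth muscle markers to 25.3 and 22.6 CPM, and the endothelial Cldn5, Flt1 and Cdh5 held no UMI, while Mecom was at 1064 and 775 CPM and Slco1a4 at 230.3 and 192 CPM. Col4a5 and Col4a6 were also found in astrocytes (61.9 and 100.4 CPM and 61.9 and 67.7 CPM) and oligodendrocytes (37.0 and 45.7 CPM and 18.5 and 25.4 CPM). The correlation of log levels across the 15 labels was 0.80 for Col4a1 with Col4a2, 0.74 for Col4a3 with Col4a4 and 0.97 for Col4a5 with Col4a6. Pairs that are not neighbours ran from -0.09, for Col4a1 with Col4a5, to 0.77, for Col4a4 with Col4a6, above the value of the neighbours Col4a3 and Col4a4. The points share libraries and depth, and the correlations are descriptions with no test. The annotated Col4a1 and Col4a2 overlap by the 22 bases shown above, on opposite strands.

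**Figure D4:**
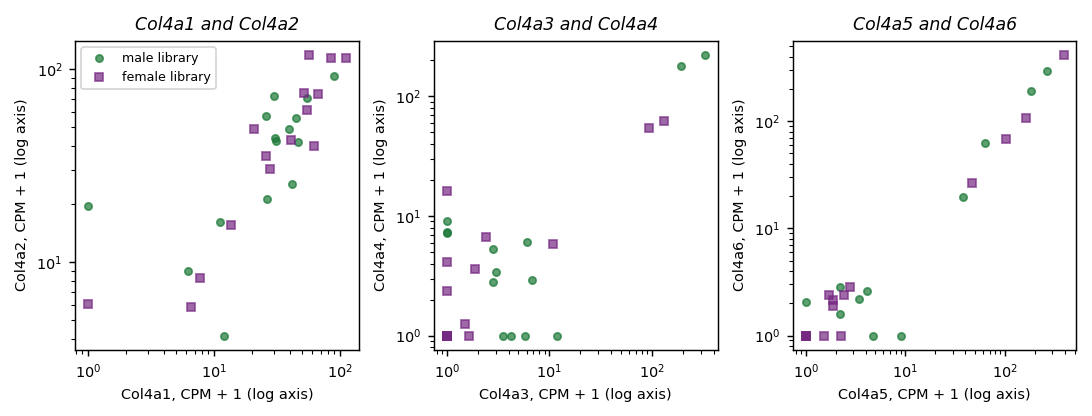
Level of the 2 genes of each neighbouring collagen IV pair in the 15 labels, as CPM plus 1 on log axes, for the male (circles) and the female library (squares). Col4a5 and Col4a6 lie along 1 line (correlation 0.97), Col4a1 and Col4a2 rise together with more scatter (0.80), and Col4a3 and Col4a4 are high in the 4 sums of the VLMC and SMC-Peri labels.

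L5 PT neurons, the layer V cells that project out of the cortex, were compared with the L2/3 IT neurons of the upper layers, since the study asks how these populations differ after injury. Of 10642 genes tested, 8.01% were called (edgeR quasi-likelihood test, Benjamini-Hochberg adjusted p under 0.05), and of the 45 members tested 11 were called, or 24.4%, with 4 higher in L5 PT and 7 lower (4.38% and 3.63% of all genes). The median log2 fold change was -0.19 over the members tested and 0.02 over all genes. Fold changes are of L5 PT against the mean of L2/3 IT-1 and L2/3 IT-2 with equal weight. They are therefore not the ratio to L2/3 IT-1 where only its levels are printed. Members pass the filter on low counts through the vascular labels as well, and when neuron labels alone were fitted, 20 members were tested and 12 called, against 1105 of 8664 genes. The labels were made by the authors from the same counts, so the p-values describe how the labelled nuclei differ and are not independent of how they were labelled.

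Lamb3, a laminin beta chain known from the basement membrane of skin, was highest in L5 PT and L6 IT neurons. Its level was 143 and 163 CPM in L5 PT and 120.5 and 185 CPM in L6 IT neurons, which overlap, with 50.5 and 86.2 CPM and 70.9 and 93.7 CPM in the L2/3 IT labels. Both libraries were higher in L5 PT than in either L2/3 label (log2 fold change 1.10, SE 0.33, adjusted p = 0.0338). The call was lost with DESeq2 (adjusted p = 0.102) and after subtraction of free RNA (adjusted p = 0.109). A Lamb3 UMI was found in 155 of 352 L5 PT nuclei (44.0%, 95% exact binomial interval 38.8 to 49.4%) and 204 of 290 (70.3%, 64.7 to 75.5%), at median depths of 3790 and 10700 UMIs. In microglia the shares were 1.42% and 2.01%, at 1298.5 and 3012.5 UMIs, and with each nucleus thinned to 2000 UMIs they were 26.1% and 29.3% in L5 PT against 1.92% and 1.31%. Thinning left out 69 and 7 L5 PT nuclei and 1378 and 431 microglia with fewer UMIs. Intervals cover counting error only. The alpha chain Lama3, also known from skin, held 2 and 3 UMIs in L5 PT nuclei, beside 234 and 564 of Lamb3. In nuclei labelled Unknown, Lamb3 stood at 7.44 and 3.15 CPM. Empty barcodes had 72.5 and 82.6 CPM. Lamb3 overlaps 4930570N18Rik on its own strand in GENCODE vM21, so some of its reads may belong to that gene.

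Among the other 3 members higher in L5 PT neurons, Col23a1, which spans the membrane, was at 33.1 and 42.5 CPM, against 4.21 and 4.08 CPM in L2/3 IT-1 (log2 fold change 2.91, SE 0.59, adjusted p = 0.00139). Col8a1 was at 49.0 and 36.7 CPM, against 12.03 and 3.17 CPM in L2/3 IT-1 (log2 fold change against both L2/3 IT labels 3.43, SE 0.76, adjusted p = 0.0038). The FACIT Col20a1 was at 64.3 and 53.8 CPM, against 21.7 and 11.8 CPM in L2/3 IT-1 and 60 and 19.5 CPM in L2/3 IT-2 (log2 fold change 1.33, SE 0.33, adjusted p = 0.00956). Col8a1 had 51.8 and 34.8 CPM in empty barcodes, close to its level in L5 PT neurons, and its call was kept after subtraction of free RNA.

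The 7 members lower in L5 PT neurons included both ubiquitous collagen IV chains. Col4a1 stood at 29.4 and 24.6 CPM and Col4a2 at 42.9 and 34.4 CPM in L5 PT, and they fell against L2/3 IT by 1.28 and 1.01 on the log2 scale (SE 0.33 and 0.31, adjusted p = 0.0123 and 0.0419). The Col4a2 call did not hold with no filter on low counts (adjusted p = 0.0799), after subtraction of free RNA (0.0845) or without nuclei holding vascular markers (0.0525). In L2/3 IT-1 nuclei a Col4a2 UMI was found in 29.7% (25.05 to 34.74%) and 48.8% (42.5 to 55.2%), against 1.18% and 1.54% of microglia, and after thinning in 17.1% and 17.2% against 1.60% and 1.05%. Fibroblast markers were near 0 in these neurons, at 10.2 and 11.8 CPM summed over 12 genes, as were pericyte and smooth muscle markers, at 12.6 and 6.80 CPM over 10, and endothelial markers summed to 17.2 CPM or less. In L2/3 IT-2 neurons the fibroblast sum was 16.4 and 46.9 CPM and the endothelial sum 5.46 and 113 CPM, against 9.80 and 11.6 CPM of endothelial markers in L5 PT, and their part in the comparison was not tested beyond leaving out nuclei with vascular markers.

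Col27a1, a fibrillar collagen known from cartilage, was at 25.7 and 18.5 CPM in L5 PT against 162 and 106 CPM in L2/3 IT-1 (log2 fold change -2.14, SE 0.28, adjusted p = 5.51e-06), and the groups did not overlap. The FACIT Col19a1 was at 3.67 and 2.02 CPM against 30.7 and 36.7 CPM (log2 fold change -3.26, SE 0.52, adjusted p = 8.92e-05). The multiplexin Col18a1 was at 0.612 and 2.31 CPM against 28.9 and 16.8 CPM (log2 fold change -3.68, SE 0.75, adjusted p = 0.00161). Lower still in UMIs were Lama4, with 2 UMIs in L5 PT and 43 in L2/3 IT (log2 fold change -4.37, SE 0.95, adjusted p = 0.0032), and Col25a1, the precursor of a peptide found in amyloid plaques, with 9 and 63 (log2 fold change -2.79, SE 0.81, adjusted p = 0.0282). Col5a3, a fibrillar chain that was high in L2/3 IT-1 (86.0 and 135 CPM) and L6 IT neurons (85.3 and 144 CPM) and at 25.1 and 24.9 CPM in L5 PT, did not pass (adjusted p = 0.0791) but did with the library as a block (adjusted p = 0.0374).

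Inhibitory neurons (Pvalb, Sst and Vip) were set against the 6 excitatory labels. Of all genes, 17.4% were called, and of the 45 members 9 (20%), 2 higher and 7 lower in inhibitory neurons (8.3% and 9.11% of all genes), and with neuron labels alone fitted 8 of 20 members, against 2132 of 8664 genes. The median log2 fold change was -0.83 over the members and -0.08 over all genes.

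Col19a1 was higher in inhibitory neurons, and it was uneven among them. Its level was 339 and 280.3 CPM in Sst neurons and 255 and 148 CPM in Pvalb neurons, but 24.3 and 5.56 CPM in Vip neurons, and the excitatory labels ran from 2.02 to 70.3 CPM. Against excitatory neurons its log2 fold change was 2.40, SE 0.46, adjusted p = 0.000268. A UMI was found in 50.6% (42.9 to 58.2%) and 57.3% (48.8 to 65.6%) of Sst nuclei, at median depths of 3797 and 9031 UMIs, against 1.54% and 2.57% of microglia, and after thinning in 43.4% and 25.5% against 2.56% and 1.42%. Lamb1 was also higher (log2 fold change 3.42, SE 1.08, adjusted p = 0.0279), on 42 UMIs in inhibitory and 10 in excitatory neurons, with 15.8 and 10.3 CPM in Pvalb neurons.

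Both ubiquitous collagen IV chains were lower in inhibitory neurons. Col4a2 was at 3.15 and 7.23 CPM in Pvalb, 15.1 and 14.6 CPM in Sst and 24.3 and 38.9 CPM in Vip neurons (log2 fold change -1.83, SE 0.26, adjusted p = 4.42e-06), and Col4a1 at 11.04 and 6.71 CPM, 10.0 and 12.5 CPM and 40.6 and 61.1 CPM (log2 fold change -1.30, SE 0.25, adjusted p = 0.000267). The Vip values lay within the range of the excitatory labels. Col20a1 (log2 fold change -1.59, SE 0.35, adjusted p = 0.00146), Col5a3 (-1.73, SE 0.54, adjusted p = 0.0247), Col23a1 (-2.23, SE 0.73, adjusted p = 0.0319) and the FACIT Col16a1 (-3.32, SE 1.17, adjusted p = 0.0495) were lower as well. Col6a1, a collagen VI chain, had no UMI in inhibitory nuclei and 81 in excitatory ones, in which it was highest in L6 CT neurons (23.9 and 20.2 CPM). With 3 counts over the inhibitory group as the limit it was at least 11.6-fold lower there (edgeR adjusted p = 0.0185). After subtraction of free RNA 4 of these 9 calls held, those of Col4a1, Col4a2, Col19a1 and Col20a1, and without nuclei holding vascular markers 7 held, all but Col6a1 and Col16a1. L6 IT nuclei, which are among the excitatory labels, held endothelial markers at 161 and 92.6 CPM summed over 10 genes, against 9.80 and 11.6 CPM in L5 PT nuclei, and their part in these results was not tested.

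Between the 2 large inhibitory labels, Lama4 was the single member called of 45, against 4.51% of all genes (2.23% higher and 2.28% lower in Pvalb). With neuron labels alone fitted, 1 of 20 members was called, against 675 of 8664 genes. Lama4 was at 47.7 and 23.6 CPM in Sst and 1.58 and 0.516 CPM in Pvalb neurons, with 72 and 2 UMIs (log2 fold change -5.24, SE 0.85, adjusted p = 0.000169). Col19a1, lower in Pvalb than in Sst neurons by 0.66 on the log2 scale, did not pass (adjusted p = 0.309) and did with the library as a block (adjusted p = 0.0452).

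**Figure D5:**
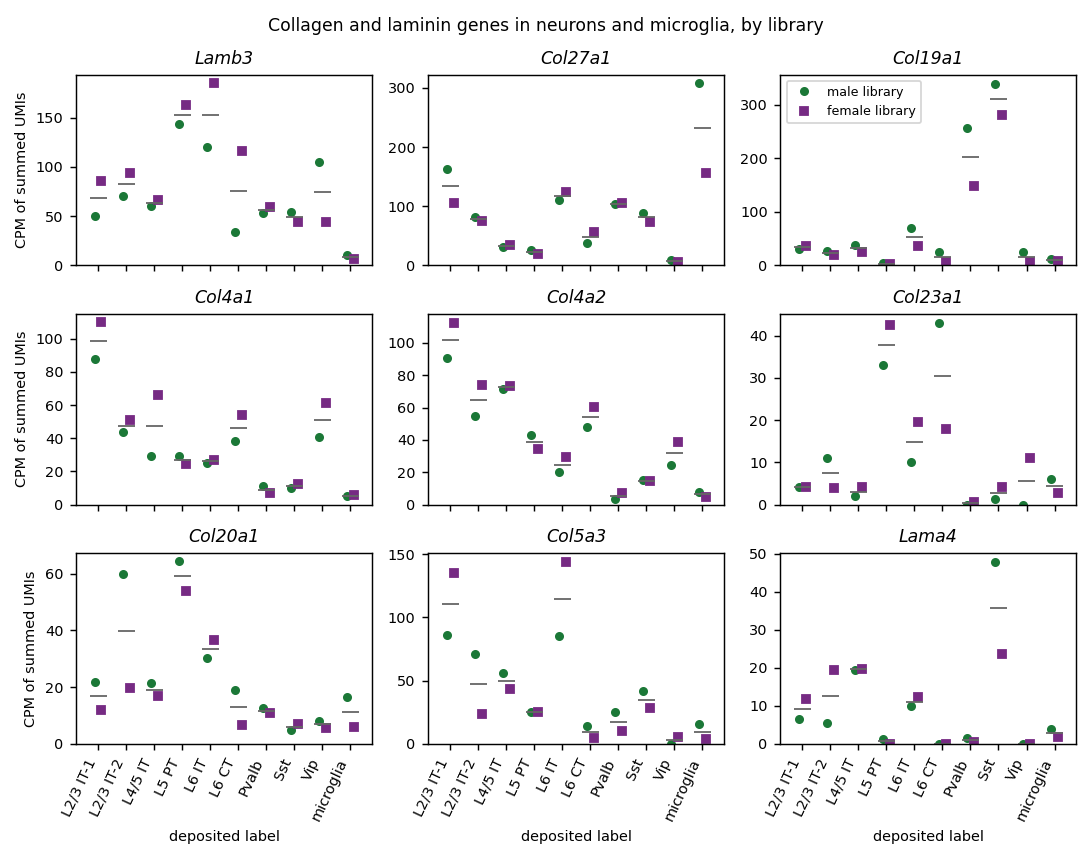
Level of 9 collagen and laminin genes in the 9 neuron labels and microglia, as CPM of the summed UMIs of the male (circles) and the female library (squares), with the mean of both as a line. Lamb3 is highest in L5 PT and L6 IT, Col19a1 in Sst and Pvalb, Col4a1 and Col4a2 in L2/3 IT-1 and Col27a1 in microglia.

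The label called microglia, deposited as Micro-PVM, was the most numerous and also holds macrophages. Its cluster 13, with 137 nuclei, had 4 markers of other macrophages at 600 and 1265 CPM summed. Between the whole label and the mean of the 9 neuron labels, 18 of 45 members (40%) differed, against 59.9% of all genes. Of these, 12 were higher in neurons and 6 higher in microglia (26.8% and 33.2% of all genes). The median log2 fold change was 0.15 over the members and -0.17 over all genes. Here too members pass the filter on low counts through the vascular labels as well, and no fit without those labels was run for this comparison. The median of all genes moved to 0.22 after subtraction of free RNA, and 12 and 6 members were called then too, with Col19a1 lost and Col11a2 gained.

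Col27a1 was highest in microglia, at 308 and 157 CPM, against 56.1 CPM or less in Vip, L4/5 IT, L5 PT and L6 CT neurons. It was lower in neurons (log2 fold change -2.09, SE 0.18, adjusted p = 2.25e-11), although the male value of L2/3 IT-1 (162 CPM) was above the female value of microglia. Empty barcodes had 135 and 83.7 CPM. Within microglia it was uneven, with 478 and 301 CPM in cluster 0 and 473 and 290.2 CPM in cluster 5 but 147 and 71.5 CPM in cluster 1 and 60 and 3.41 CPM in cluster 13, the cluster that holds the macrophage markers Mrc1 and F13a1. Col15a1, a multiplexin, was at 51.7 and 41.8 CPM and close to 0 in neurons (log2 fold change -4.33, SE 0.33, adjusted p = 3.44e-12), with a UMI in 7.10% (5.92 to 8.43%) and 11.9% (10.6 to 13.3%) of microglia, and in 9.29% and 6.87% after thinning.

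Lama3 was called higher in microglia, but this rested on the female library. Its level was 4.81 and 27.6 CPM, and the log2 ratio of neurons to microglia was -0.35 for the males and -2.97 for the females (log2 fold change -2.31, SE 0.45, adjusted p = 5.80e-05). Of 222 Lama3 UMIs in female microglia, 169 lay in cluster 1, in which its level was 11.1 and 56.2 CPM. Col6a3 (log2 fold change -4.78, SE 0.82, adjusted p = 1.61e-05), Col14a1 (-3.83, SE 0.71, adjusted p = 5.20e-05) and Lamb2 (-3.15, SE 0.97, adjusted p = 0.00723) were also higher in microglia, at levels of at most 12.1 CPM, and the Lamb2 call was lost with DESeq2 (adjusted p = 0.0706).

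Of the 12 members higher in neurons, Lamb3 (log2 fold change 3.39, SE 0.38, adjusted p = 5.83e-09), Col5a1 (2.89, SE 0.49, adjusted p = 9.22e-06) and Col26a1 (2.85, SE 0.46, adjusted p = 4.37e-06) had the largest differences beside Col18a1 (3.21, SE 0.81, adjusted p = 0.00117). Col5a1 was highest in L6 CT neurons (66.9 and 76.3 CPM), and Col26a1 in Vip (73.0 and 100.0 CPM) and L4/5 IT neurons (58.0 and 78.9 CPM). Col4a1 and Col4a2 were higher by 2.55 and 2.56, and Col7a1, the anchoring collagen of skin, by 2.29, with its highest level in Pvalb neurons (41.0 and 18.1 CPM, below its level of 45.6 and 27.2 CPM in empty barcodes). Col19a1, Col5a3, Col11a1, Col20a1 and Lamc1 were higher by 0.80 to 2.30. Lamc1 differed little over these labels, with 40.1 and 51.1 CPM in microglia and 43.0 to 122 CPM over the neuron labels, and 70.4 and 70.7 CPM in empty barcodes.

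Some members were high in glial labels other than microglia. Lama2 was at 365 and 528 CPM in astrocytes, which line vessels and the pia with their endfeet, and at 166 and 76.2 CPM in oligodendrocytes, while none of the 9 neuron labels used was above 33.8 CPM. Col11a2, a fibrillar chain, was highest in astrocytes (173 and 80.8 CPM), as were Lama3 (80.4 and 76.4 CPM), Col9a2 and Col6a6, the last 2 with under 30 UMIs in all nuclei. Col16a1 was at 55.7 and 48.0 CPM in astrocytes and 55.5 and 86.4 CPM in oligodendrocytes, in which Col20a1 was also highest (92.5 and 71.2 CPM). These oligodendrocyte ranks rest on few UMIs, 3 and 17 of Col16a1 and 5 and 14 of Col20a1. L5 PT neurons came next for Col20a1, at 64.3 and 53.8 CPM. Col11a1 was at 0 and 213 CPM in oligodendrocytes, so that its rank there rests on the female library. These labels had 115 and 68 nuclei, and no test was run on them. In astrocytes, fibroblast markers summed to 55.7 and 188 CPM over 12 genes, most of it from Bnc2 in the female library (12.4 and 120.1 CPM), and in oligodendrocytes to 222 and 142 CPM. Pericyte and smooth muscle markers summed to 192 and 196 CPM over 10 genes in astrocytes, and 43 of 53 male and 35 of 62 female astrocyte nuclei had fewer than 2 UMIs of vascular markers. Their part in the Lama2 levels was not tested.

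Of the nuclei labelled Unknown, 333 of 395 lay in deposited cluster 7. Col25a1 was at 105 and 95.2 CPM in the Unknown nuclei, above the 48.4 CPM or less of the 9 neuron labels used. Lama5 (31.9 and 23.3 CPM), Lamb1 (20.2 and 18.3 CPM), Col13a1 (18.1 and 36.6 CPM), Col22a1 (25.5 and 19.5 CPM) and Col6a1 (27.6 and 14.5 CPM) were present as well. Not all of these were particular to the label. Lama5 was higher in Vip neurons (40.6 and 38.9 CPM), and Col6a1 had its highest mean in L6 CT neurons (23.9 and 20.2 CPM). Lamb1 was at 15.8 and 10.3 CPM in Pvalb neurons.

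The remaining members were low in all labels used. Col6a4, Col24a1, Col2a1 and Col17a1 held 31 to 88 UMIs in all nuclei, and none of them reached 12 CPM in the label with its highest mean. At this depth their levels could not be ordered over labels.

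The genes that make, bind and cut these proteins were counted in 4 lists. Of the enzymes and chaperones that modify, fold and cross-link collagen, 23 of 26 held at least 20 UMIs, and 8 of the 23 were highest in VLMC nuclei, among them Adamts2, which removes the N-terminal propeptide of collagen (76.0 and 149 CPM). Of 15 receptors 4 were highest there. Of 7 basement membrane partners 3 were, among them Fn1, the gene of fibronectin (18.5 and 144 CPM), and of 10 proteases and inhibitors 4, among them the inhibitor Timp3 (372 and 388 CPM). These values are of the VLMC label, and were not split by cluster. The share of all genes highest in VLMC nuclei was not computed, so these counts do not set the lists apart from other genes.

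Between L5 PT and L2/3 IT neurons, 2 of 13 receptors tested were higher in L5 PT and none lower, against 4.38% and 3.63% of all genes. Itgb1, the beta chain of most integrins for laminin and collagen, was at 182 and 210.0 CPM in L5 PT (log2 fold change 1.53, SE 0.20, adjusted p = 5.96e-06), and Itga7, a laminin-binding alpha chain, was higher too (log2 fold change 1.72, SE 0.36, adjusted p = 0.00219). Of 18 collagen maturation genes 1 was lower, Adamts3 (log2 fold change -1.64, SE 0.24, adjusted p = 2.59e-05), and none of 7 basement membrane partners or 7 proteases and inhibitors was called. In inhibitory against excitatory neurons (8.3% of all genes higher and 9.11% lower), 1 of 18 maturation genes was higher, Pcolce2, an enhancer of propeptide removal (log2 fold change 0.97, SE 0.22, adjusted p = 0.00229), and 3 were lower, the propeptide-cutting Bmp1 (-1.45, SE 0.34, adjusted p = 0.0027) and Adamts2 (-4.03, SE 1.38, adjusted p = 0.0436) and the prolyl hydroxylase subunit P4ha1 (-0.64, SE 0.19, adjusted p = 0.0199). Also, 2 receptors, Itga2 (log2 fold change -4.93, SE 0.78, adjusted p = 3.94e-05) and Itga6 (-1.20, SE 0.31, adjusted p = 0.00582), and 1 protease, Mmp17 (-5.54, SE 0.66, adjusted p = 3.55e-07), were lower. Between Pvalb and Sst neurons (2.23% of all genes higher and 2.28% lower), 1 of 13 receptors, Itga7, was higher (2.78, SE 0.49, adjusted p = 0.000323) and 1 of 7 proteases and inhibitors, Timp3, lower (-5.76, SE 0.78, adjusted p = 1.02e-05). Against microglia, the counts higher and lower in neurons were 6 and 6 of 18 for maturation, 3 and 2 of 13 for receptors, 1 and 3 of 7 for basement membrane partners and 3 and 2 of 7 for proteases, against 26.8% and 33.2% of all genes. The receptor Itga6, highest in microglia at 301 and 268 CPM, was lower in neurons (log2 fold change -3.98, SE 0.17, adjusted p = 9.26e-18), as was Lair1, an inhibitory collagen receptor of immune cells (-5.46, SE 0.21, adjusted p = 7.07e-19). Sparc, a collagen-binding protein that microglia make, was lower in neurons (-5.82, SE 0.34, adjusted p = 2.24e-14), and Agrn, the proteoglycan agrin, was higher (2.12, SE 0.27, adjusted p = 8.61e-08).

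The genes whose log levels over the 15 labels were most like those of a member were searched for the 4 members with the most UMIs, among 10659 genes. For Lamb3 these were Fhod3 (correlation 0.96), Igf2bp2 (0.95), Homer1 (0.94), Sympk (0.94) and Ecel1 (0.94). The gene closest to Col27a1 was Inppl1 (0.91), that closest to Col8a1 was Slc4a5 (0.92), and that closest to Lamc1 was March6 (0.86). The labels share libraries and depth, so these are descriptions with no test.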

How the data were processed

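Single-nucleus RNA was captured with 10X Genomics 3′ v3 chemistry, and UMI counts per gene and barcode were deposited by the authors as Cell Ranger matrices on mm10 (GRCm38) with intron reads counted, for called nuclei and for all barcodes. The labels name Cell Ranger 3.1.0 and the file headers name other versions. Cluster numbers and cell type labels came from the metadata the authors deposited, made with Seurat and by mapping to a motor cortex reference. A further deposited table holds depth-corrected values and was not used.

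UMI counts were summed per label and library (15 labels, 2 libraries, 30 sums) and given as CPM of the sum, for members with at least 20 UMIs in all nuclei and labels with at least 50 nuclei. Called nuclei held 11007366 (male) and 23202343 (female) UMIs. The sums were fitted with edgeR 4.0.16 (quasi-likelihood test, TMM factors, filterByExpr, R 4.3.3), with 1 coefficient per label and Benjamini-Hochberg adjustment over all 10642 genes tested. Unless another tool is named, adjusted p-values are from edgeR. SE is the absolute log2 fold change divided by the square root of the F statistic of its test. It is not a standard error given by the fit. Sums of the same library share animals, so the library was added as a block in an alternative fit. Deviations of sums of the same library correlated by a median of 0.122 (range -0.0507 to 0.404) over 105 pairs of labels. The biological coefficient of variation was 0.207. The 2 libraries are separate pools of animals, so p-values rest on 2 sums per label. Alternatives were DESeq2 1.42.0, RLE factors, no low-count filter, neuron labels only, sums with the level of empty barcodes (at most 100 UMIs) subtracted, nuclei with 2 or more UMIs of vascular markers left out, and each library left out. For fold changes, the last was the log2 CPM ratio of the other library, with a constant added and no refit. Scripts were tested on simulated data. The matrices were used as filtered by the authors, and no doublet caller was run here. Intervals are exact binomial at 95%. Shares were thinned to 2000 UMIs per nucleus.

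Members with at least 20 UMIs are named, except for an item that is not reported here, with values in its highest label for those with at least 100 UMIs in all nuclei or called in a contrast, and of the other gene lists those called in a contrast or among the 4 with most UMIs of their list. The members, gene lists and tests were chosen with earlier results of these data known. The split of vascular labels by cluster, its male to female ratios and the fit on L2/3 IT-1 alone were added after seeing the data.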

Additional observations from a re-analysis of the deposited data

Results flagged for a closer look

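There were 3 members that moved in opposite directions in the libraries, and these differences were not tested. Between Pvalb and Sst neurons, Col25a1 had a log2 ratio of -1.40 in males and 0.52 in females. Between neurons and microglia, Col12a1 had -1.21 in males and 1.35 in females, and Col6a1 had -1.38 and 2.32. None of these 3 was called in its contrast.

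In the nuclei labelled Sncg, a small class of inhibitory neurons that was too rare for the comparisons, member UMIs summed to 5651 CPM (male library) and 2454 CPM (female library), above the 544 to 1011 CPM of the 9 neuron labels used. The label held 4 and 7 nuclei. Col25a1 gave 110 and 81 UMIs, of which 90 were in 1 male nucleus and 55 in 1 female nucleus, and Col19a1 gave 31 and 49. The gene Sncg itself had 0 and 2 UMIs in them.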

How the results depend on the processing

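No member called in a contrast changed its direction under the alternatives tried. The median log2 fold change of all genes in neurons against microglia did, from -0.17 to 0.22 after subtraction of free RNA. Of 9 members called between inhibitory and excitatory neurons, 4 were called after subtraction of free RNA. Between Pvalb and Sst neurons 1 member was called, against 2 with the replicate block and 3 with no low-count filter, which added Col4a4 and Lama3. With the block, the counts of called members were 12 for L5 PT against L2/3 IT, 10 for inhibitory against excitatory neurons and 19 for neurons against microglia, and no call was lost. Lamb3 was gained between inhibitory and excitatory neurons (edgeR adjusted p = 0.0214) and Col11a2 between neurons and microglia (edgeR adjusted p = 0.0051). Of the 39 calls of a member in a contrast, 2 were lost with DESeq2, 8 after subtraction of free RNA, 2 with no low-count filter and 3 without nuclei holding vascular markers, and none with RLE factors. The count of members beyond 2-fold between the libraries was 12 of 26 in VLMC nuclei. It was 0 of 18 in cluster 11, 0 of 9 in cluster 15 and 1 of 7 in cluster 25, over different sets of members. The count of 31 members highest in a vascular label ran from 30 to 33 with 1 library left out. Of 42 levels, 11 moved by more than the spread between libraries when each nucleus had equal weight, and 2 after subtraction of free RNA. Leaving out nuclei with markers of another type gave values for 3 levels, as too few nuclei were left for the others. Of all genes called between neurons and microglia, 44.7% were higher in neurons, against 32.6% with no low-count filter, 49.2% with DESeq2 and 53.8% after subtraction of free RNA. Between L5 PT and L2/3 IT neurons 54.7% were higher in L5 PT, against 49.1% with DESeq2 and 45.7% with L2/3 IT-1 alone. The log2 CPM ratio of 1 library alone was also set against the edgeR fold change, with no refit and no test. Of the 39 fold changes, 9 differed from the ratio of the female library by more than the SD between the libraries. From the ratio of the male library 17 did. The ratio and the fit treat low counts differently, so these counts do not measure the effect of leaving out a library.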
